A study of Mus musculus with 36 samples.

Results

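The genes described are 10 members of the pathway through which transforming growth factor-β (TGF-β) signals to the nucleus, out of 56748 genes in the count table. They were chosen by gene symbol, with no use of measured values in the rule but with earlier results of these data known. They are the ligand Tgfb1, the receptors Tgfbr1, Tgfbr2 and Tgfbr3, the signal-carrying proteins Smad2, Smad3 and Smad4, and the inhibitors Smad7, Ski and Skil. They were followed by RNA sequencing of mouse CD4+ T cells lacking 1 of 2 heterochromatin proteins, HP1a (HP1α, gene Cbx5) or HP1g (HP1γ, gene Cbx3), in 12 groups of 3 libraries. The mice were male littermates 6 to 12 weeks old, on a mixed 129/Sv and C57BL/6 background. In the HP1a line a floxed allele had been excised in the germ line with a CMV-driven Cre, so that HP1a KO mice lacked the protein in every tissue, and HP1a WT littermates carried the intact gene. In the HP1g line a Cd4-driven Cre deleted the floxed allele in T cells, and HP1g WT littermates carried the floxed allele without Cre.

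Each genotype was sampled in 3 conditions. Naive cells were splenic CD4+ CD62L+ T cells with low CD44, enriched with magnetic beads and not sorted by flow cytometry. For Tconv, such naive cells were injected with allogeneic and syngeneic bone marrow into irradiated C57BL/6 hosts, and donor CD4+ cells bearing the Vβ6 T cell receptor chain, which recognise the allogeneic marrow, were sorted from the spleen 3 weeks later. For Tconv with Treg, the graft also held regulatory T cells (Treg) expanded in culture with interleukin-2 and TGF-β1. These added Treg were wild-type in every group, carried a Thy1.1 reporter under Foxp3, and were gated out at the sort. HP1g KO Tconv with Treg had 2 libraries in use, because the third was set aside by the study for its base composition and read distribution.

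TGF-β is secreted bound to a latency peptide and has to be released, by integrins among others, before it can act. Active ligand is held by TGFBR2, which phosphorylates TGFBR1; the activated TGFBR1 kinase then phosphorylates SMAD2 and SMAD3, which join SMAD4 and enter the nucleus. TGFBR3, also called betaglycan, presents ligand to the other receptors and can be shed as a soluble trap. SMAD7 blocks the receptor kinase and recruits ubiquitin ligases to it, and SKI and SKIL (SnoN) hold SMAD complexes in a repressive state; Smad7 and Skil are also induced by the pathway itself, as a brake. In T cells the pathway is known for restraining activation and T helper 1 differentiation and for inducing Foxp3 and the tissue-retention integrin Itgae.

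Smad3 and Tgfbr1 were the 2 members that passed the test for a lower level with grafted Treg in the WT cells of the HP1a line, and Tgfb1 moved in the same direction as Smad3 between naive cells and Tconv, so the 250 bases upstream of the annotated start of each are shown. They were read from GRCm39, the build of the deposited counts, with the GENCODE start that lies furthest upstream, and each is written 5′ to 3′ on the strand of the gene. Smad3 (ENSMUSG00000032402) spans chr9:63554049-63665476, Tgfbr1 (ENSMUSG00000007613) chr4:47353134-47414931 and Tgfb1 (ENSMUSG00000002603) chr7:25386390-25404506, all protein-coding, and each window ends at the base before the first exon. Capitals mark GGGCGG, a GC box, and CAGAC, the core of many SMAD-binding elements, on either strand.
Smad3, chr9:63665477-63665726, minus strand: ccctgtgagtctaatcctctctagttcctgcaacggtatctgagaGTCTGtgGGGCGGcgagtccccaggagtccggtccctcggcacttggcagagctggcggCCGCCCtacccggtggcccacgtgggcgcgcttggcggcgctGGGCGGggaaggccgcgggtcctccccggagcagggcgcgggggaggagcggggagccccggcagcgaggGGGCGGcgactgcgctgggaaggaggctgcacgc
Tgfbr1, chr4:47352884-47353133, plus strand: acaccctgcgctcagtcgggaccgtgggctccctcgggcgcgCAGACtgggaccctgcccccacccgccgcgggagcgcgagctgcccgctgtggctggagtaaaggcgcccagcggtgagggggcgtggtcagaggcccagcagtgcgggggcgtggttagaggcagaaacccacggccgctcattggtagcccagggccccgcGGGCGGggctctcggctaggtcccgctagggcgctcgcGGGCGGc
Tgfb1, chr7:25386140-25386389, plus strand: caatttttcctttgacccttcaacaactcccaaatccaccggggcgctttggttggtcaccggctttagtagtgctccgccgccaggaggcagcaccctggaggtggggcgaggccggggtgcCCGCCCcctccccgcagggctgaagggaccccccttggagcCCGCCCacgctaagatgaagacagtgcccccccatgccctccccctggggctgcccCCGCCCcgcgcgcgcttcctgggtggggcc

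The Smad3 window held 4 GC boxes and 1 CAGAC, the Tgfbr1 window 2 GC boxes and 1 CAGAC, and the Tgfb1 window 3 GC boxes and no CAGAC. GC boxes were found upstream of 8 of the 10 members and of 29.9% of 21770 protein-coding genes, and CAGAC upstream of 5 of the 10 and of 41.9%. The palindromic SMAD element GTCTAGAC was found upstream of Smad7 alone among the members and of 0.234% of all genes. The Smad7 window overlaps annotated exons (97 entries), as does the Tgfbr2 window (12 entries), so these are not plain upstream sequence. TGANTCA, bound by AP-1, and GTAAACA, bound by forkhead factors, were in none of the 10 windows, against 6.46% and 2.97% of all windows; both strands were searched, and the motifs did not overlap each other in the sequences shown.

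The 35 libraries in use held 37029477 to 63042165 estimated counts (median 46844629), so that 3 counts corresponded to 0.0476 to 0.081 CPM (counts scaled to library size and composition), and all 10 members lay far above that in each library. The labels do not say whether the 3 libraries of a group came from separate mice, so the p-values measure the spread between these samples, which may be technical. Libraries of a group correlated at 0.965 to 0.997 across genes, whereas the library set aside reached 0.756 with its group. Cbx5 did not overlap between HP1a KO and WT in any of the 3 conditions (log2 differences of −1.03, −0.89 and −1.42), nor did Cbx3 between HP1g KO and WT (−0.95, −0.43 and −0.53), which is the direction of the labels. In edgeR the difference passed for Cbx5 in Tconv (adjusted p = 0.0331) and in none of the other 5. In DESeq2 Cbx5 passed in all 3 conditions (adjusted p of 9.22e-05, 6.73e-09 and 4.47e-05) and Cbx3 in none (0.0853, 0.108 and 0.0762). Naive cells, the HP1a line and the HP1g line carry separately numbered libraries, so a difference between naive and grafted cells, or between lines, cannot be told apart from one between such sets. In these bulk samples fewer cells of a type and less RNA per cell cannot be told apart either.

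Per kilobase of merged exons, Tgfbr2 was the most abundant member, with a median of 44.1 CPM per kb over the 35 libraries, and Smad7 followed at 28.0 and Smad4 at 18.9. Tgfb1 had a median of 14.7, Smad3 of 11.1, Ski of 9.85, Skil of 9.32, Smad2 of 8.62 and Tgfbr1 of 5.36 CPM per kb. Tgfbr3 was lowest at 3.77 CPM per kb, but its median was 21.6 in the 12 naive libraries and 2.80 in the 23 libraries of grafted cells. The ranges over libraries overlapped between every pair of neighbours in this order, so the order is that of the medians only. The receptor pair was uneven in each condition: Tgfbr1, at 1.44 to 7.76 CPM per kb, lay below the lowest library of Tgfbr2, at 17.7 to 87.4. Group means spanned the widest range for Tgfbr3, 12.2-fold from 13.5 to 165 CPM, and for Smad7, 5.05-fold, and the narrowest for Smad2, 1.55-fold.

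**Figure D1:**
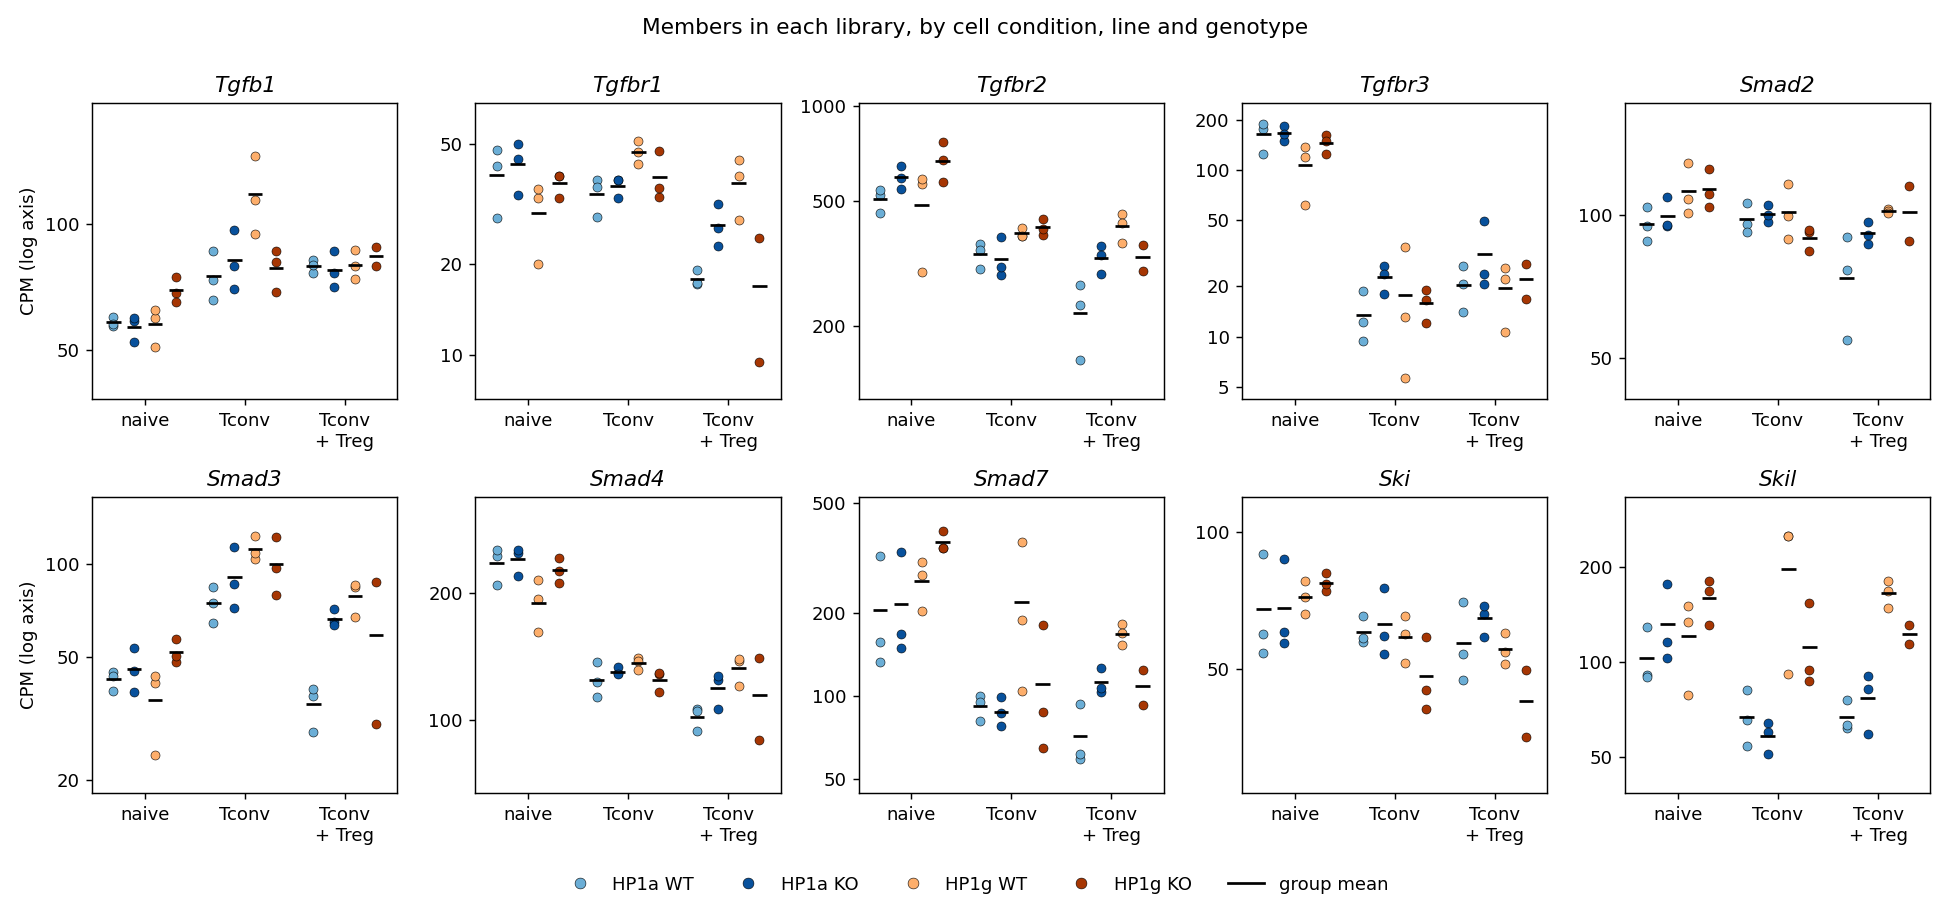
Each panel shows 1 member, with CPM on a log axis and the 12 groups along the horizontal axis, ordered within each condition as HP1a WT, HP1a KO, HP1g WT and HP1g KO; each point is a library and each bar a group mean. Tgfbr3 drops from 61.4 to 188 CPM in naive cells to 5.63 to 49.2 CPM in grafted cells, Smad3 is higher in Tconv than in naive cells in each line and genotype, and Smad3 in the HP1a WT cells grafted with Treg lies at 28.6 to 39.5 CPM, as low as in naive cells.

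The first comparison asked how the pathway differed between naive cells and Tconv taken from grafted hosts, in each line and genotype. Smad3 rose and Tgfbr3 fell in all 4 comparisons, Tgfb1 rose in 3, and Tgfbr2, Smad4 and Smad7 fell in 3. By the quasi-likelihood test of edgeR, with p-values adjusted over all genes after Benjamini and Hochberg, 2 members rose and 5 fell in HP1a WT cells, 2 rose and 5 fell in HP1a KO cells, 2 rose and 1 fell in HP1g WT cells, and 1 rose and 6 fell in HP1g KO cells. Those totals stand against 45.7%, 40.6%, 31.4% and 41.1% of all genes tested, in the same order, of which 24.3%, 22.9%, 18.3% and 23.4% rose and 21.4%, 17.8%, 13.2% and 17.7% fell. Change as such was therefore common, and 7, 7, 6 and 7 members without overlap between naive cells and Tconv stand against 57.8%, 54.9%, 52.0% and 53.6% of all genes. With an added threshold of 1 on the absolute log2 difference, which the study used, 2, 4, 3 and 2 members passed, against 23.1%, 19.7%, 23.5% and 23.1% of all genes. DESeq2 called 7, 7, 5 and 6 members, against 26.9%, 24.5%, 21.0% and 24.1% of all genes with a count in these libraries. That larger set keeps low counts and any gene left without an adjusted p by DESeq2. The DESeq2 shares, here and below, can therefore be lower than shares of the genes it could call. The median log2 difference of the 10 members was −0.39, −0.53, −0.20 and −0.58, against −0.04, −0.01, −0.03 and 0.02 for all genes. Naive cells were isolated in another way than Tconv, and myeloid markers were not level: summed over 10 markers they were 6.52 to 14.4 CPM in naive libraries, 7.09 to 8.63 in HP1a WT Tconv, 13.9 to 180 in HP1a KO Tconv, 28 to 406 in HP1g WT Tconv and 44.5 to 113 in HP1g KO Tconv. Erythroid markers, summed over 6 genes, went from 37.4 to 97.8 CPM in HP1a WT naive cells to 1.80 to 3.44 in Tconv, where 5 of 5 tested fell. In HP1a KO cells they were at 40.9 to 179 and 26.4 to 770 CPM, and none of 6 passed. In the HP1g line they were at 9.88 to 50.3 and 75.7 to 4960 CPM in WT cells, where 6 of 6 rose, and at 64.5 to 78.6 and 159 to 3330 CPM in KO cells, where 5 of 6 rose. Of the B cell markers tested, 5 of 7, 3 of 8, 2 of 5 and 5 of 9 fell and 2, 1, 1 and 1 rose in the 4 groups, at sums of at most 19.8 CPM. The part of these cells in the differences below was not tested.

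Tgfb1, the ligand gene, was at 60.1, 57.2 and 57.8 CPM in HP1a WT naive cells and 73.3, 85.9 and 66 CPM in HP1a WT Tconv. In HP1a KO cells the values were 58.8, 59.5 and 52.4 CPM in naive cells and 69.8, 96.8 and 79.4 CPM in Tconv. In HP1g WT cells they were 59.7, 51 and 62.3 CPM in naive cells and 145, 114 and 94.7 CPM in Tconv. In these 3 settings each Tconv library lay above each naive one, and the rises were 0.37 (SE 0.11), 0.54 (SE 0.128) and 1.03 (SE 0.193) on the log2 scale (edgeR adjusted p of 0.0232, 0.0125 and 0.00501). The rise in HP1a WT cells passed in 2 of 6 fits with 1 library left out, with adjusted p up to 0.0883. HP1g KO cells had a higher naive level, 69.5 ± 4.89 CPM (SD, n = 3), and 78.6 ± 8.97 CPM in Tconv, and the difference of 0.20 did not pass (edgeR adjusted p = 0.169).

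Tgfbr3, the co-receptor gene, fell more than any other member. It was at 125, 176 and 188 CPM in HP1a WT naive cells and 12.3, 18.9 and 9.37 CPM in HP1a WT Tconv. HP1a KO naive cells had 149, 183 and 163 CPM and HP1a KO Tconv had 18.1, 26.5 and 23.8 CPM. Naive and Tconv libraries were far apart in both genotypes. HP1g WT naive cells had 120, 61.4 and 137 CPM and HP1g WT Tconv had 34.3, 13.2 and 5.63 CPM. HP1g KO naive cells had 124, 161 and 148 CPM and HP1g KO Tconv had 19.1, 12 and 16.7 CPM. The HP1g WT Tconv libraries were the most scattered of these groups. The log2 differences were −3.58 (SE 0.284), −2.84 (SE 0.153), −2.59 (SE 0.622) and −3.15 (SE 0.183), with edgeR adjusted p of 6.35e-05, 1.93e-05, 0.0156 and 5.71e-06. The call in HP1g WT cells was lost without Tconv replicate 2 (adjusted p = 0.0629) and without the filter on low counts (0.125). Tgfbr3 shares 297 exon bases with a same-strand annotated transcript, Gm43422, to which some of its reads could have been assigned.

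The genes most like Tgfbr3 in grafted cells included genes of myeloid cells. Over the 8 group means of Tconv with and without Treg, the closest, by Pearson correlation of log2(CPM + 1) among 9409 genes, were Apoe at 0.973, Creg1 at 0.946 and Tyrobp, an adaptor of myeloid and natural killer receptors, at 0.932. The HP1g WT Tconv replicate with 34.3 CPM of Tgfbr3 belongs to the group in which the summed myeloid markers ran from 28 to 406 CPM. The part of these cells in the Tgfbr3 values was not tested. HP1a WT Tconv had 9.37 to 18.9 CPM of Tgfbr3 with the myeloid sum at 7.09 to 8.63 CPM, and naive libraries, in which Tgfbr3 was highest, had 6.52 to 14.4 CPM of the myeloid markers.

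Tgfbr2, the ligand-binding receptor gene, was at 458, 522 and 542 CPM in HP1a WT naive cells and 365, 303 and 349 CPM in Tconv. HP1a KO naive cells had 547, 647 and 591 CPM and HP1a KO Tconv had 385, 290 and 309 CPM. HP1g KO naive cells had 574, 768 and 674 CPM and HP1g KO Tconv had 438, 390 and 408 CPM. Each Tconv library was below each naive one, and Tgfbr2 fell by 0.57 (SE 0.106), 0.84 (SE 0.119) and 0.68 (SE 0.125) on the log2 scale, with edgeR adjusted p of 0.00272, 0.00133 and 0.00285. The HP1g WT naive libraries were at 568, 298 and 587 CPM and the Tconv libraries at 387, 409 and 388 CPM, so that naive replicate 2 lay below all 3 Tconv libraries and the difference of −0.30 did not pass (edgeR adjusted p = 0.418). Without that library it was −0.54 with an adjusted p of 0.00208. Tgfbr2 shares 443 exon bases with the antisense transcript Gm4668, and the library kit does not mark the strand.

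Tgfbr1, the receptor kinase gene, did not pass in any of the 4 comparisons. Its means were 39.7 ± 9.94 CPM in HP1a WT naive cells and 34.3 ± 4.9 CPM in Tconv (SD, n = 3), and its log2 differences were −0.20 (95% confidence interval −0.64 to 0.24), −0.22 (−0.56 to 0.13), 0.67 (0.14 to 1.21) and 0.09 (−0.25 to 0.43). It passed in HP1g WT cells in DESeq2 (adjusted p = 0.034) and, at 0.46, without naive replicate 2 (edgeR adjusted p = 0.0153), and in HP1a WT cells, at −0.39, without naive replicate 1 (0.0338), so that the sign was not shared by the lines.

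Smad3, 1 of the pair of SMADs that the TGF-β receptor phosphorylates, was at 38.7, 44.8 and 43.3 CPM in HP1a WT naive cells and 75.1, 84.6 and 64.4 CPM in Tconv. In HP1a KO cells it was at 38.4, 53.3 and 45 CPM in naive cells and 72, 114 and 86 CPM in Tconv. Naive and Tconv libraries did not overlap in either genotype. In HP1g WT cells it was at 41.1, 24.1 and 43.3 CPM in naive cells and 124, 104 and 109 CPM in Tconv. In HP1g KO cells it was at 48.1, 57.4 and 50.5 CPM in naive cells and 79.5, 97.3 and 123 CPM in Tconv. There too each Tconv library was above each naive one. The rises on the log2 scale were 0.83 (SE 0.119), 1.01 (SE 0.185), 1.63 (SE 0.237) and 0.97 (SE 0.155), with edgeR adjusted p of 0.000716, 0.00432, 0.00149 and 0.00139. Each of these 4 calls held in all 6 fits with 1 library left out.

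Smad2, the other of the pair, passed only in HP1g KO cells, where it was at 104, 125 and 111 CPM in naive cells and 92, 93.2 and 83.9 CPM in Tconv, a fall of 0.31 on the log2 scale (SE 0.0999, edgeR adjusted p = 0.0339) that passed in 2 of 6 fits with 1 library left out and missed the threshold in DESeq2 (adjusted p = 0.0549). In the other 3 comparisons its log2 differences were 0.04, 0.03 and −0.15.

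Smad4, the partner shared by all receptor SMADs, was at 209, 244 and 253 CPM in HP1a WT naive cells and 137, 123 and 113 CPM in Tconv. HP1a KO naive cells had 219, 248 and 253 CPM and HP1a KO Tconv had 129, 133 and 128 CPM. HP1g KO naive cells had 211, 242 and 225 CPM and HP1g KO Tconv had 128, 129 and 116 CPM. Smad4 fell in these 3 comparisons, by 0.91 (SE 0.107), 0.87 (SE 0.0726) and 0.84 (SE 0.0988) on the log2 scale, with no overlap (edgeR adjusted p of 0.000248, 0.000122 and 0.000271). HP1g WT naive cells had 214, 161 and 193 CPM and HP1g WT Tconv had 140, 138 and 131 CPM, also without overlap, and the difference of −0.48 missed the threshold (edgeR adjusted p = 0.0532). It passed in DESeq2 (adjusted p = 0.034) and without naive replicate 2 (adjusted p = 0.00241).

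Smad7, which blocks the receptor, was at 322, 133 and 157 CPM in HP1a WT naive cells and 100, 94.7 and 81 CPM in Tconv. In HP1a KO cells it was at 331, 167 and 149 CPM in naive cells and 98.8, 77.8 and 86.2 CPM in Tconv. Naive replicate 1 stood well above the other naive libraries in both genotypes. In HP1g KO cells it was at 343, 394 and 343 CPM in naive cells and 180, 64.6 and 87.4 CPM in Tconv. In these 3 comparisons naive and Tconv libraries did not overlap, and Smad7 fell by 1.14 (SE 0.338), 1.29 (SE 0.32) and 1.67 (SE 0.378) on the log2 scale (edgeR adjusted p of 0.0325, 0.0192 and 0.0139). None of these 3 calls held without the filter on low counts (adjusted p of 0.132, 0.0956 and 0.0699). The call in HP1a WT cells was also lost without any 1 of the 3 Tconv replicates (0.0635, 0.0912 and 0.103), and that in HP1a KO cells without Tconv replicate 2 or 3 (0.0516 and 0.0597). In HP1g WT cells it was at 273, 202 and 305 CPM in naive cells and 362, 188 and 104 CPM in Tconv, which overlapped, and the difference of −0.26 did not pass (edgeR adjusted p = 0.662).

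Skil, whose protein binds SMADs as a corepressor, was at 129, 90.8 and 89.3 CPM in HP1a WT naive cells and 81.4, 65.6 and 54 CPM in Tconv. HP1a KO naive cells had 176, 116 and 103 CPM and HP1a KO Tconv had 64.1, 51.1 and 59.7 CPM. It fell in both, by 0.61 (SE 0.189) and 1.16 (SE 0.212) on the log2 scale, with edgeR adjusted p of 0.0289 and 0.00464; the call in WT cells held in 3 of 6 fits with 1 library left out. Levels in HP1g WT cells were 150, 78.3 and 134 CPM in naive cells and 250, 250 and 91.2 CPM in Tconv, a log2 difference of 0.71 that did not pass (edgeR adjusted p = 0.219). HP1g KO naive cells had 131, 168 and 180 CPM and HP1g KO Tconv 154, 86.7 and 94.1 CPM, a difference of −0.49 (edgeR adjusted p = 0.129). Calls appeared without Tconv replicate 3 in HP1g WT cells, at 1.05 (adjusted p = 0.0418), and without Tconv replicate 1 in HP1g KO cells, at −0.80 (0.000192), opposite in sign. Ski, its close relative, passed only in HP1g KO cells, falling from 81.2, 74.1 and 76.9 CPM in naive cells to 58.7, 44.8 and 40.8 CPM in Tconv, by 0.66 on the log2 scale (SE 0.143, edgeR adjusted p = 0.00621). In the other 3 comparisons Ski differed by −0.16, −0.11 and −0.30.

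**Figure D2:**
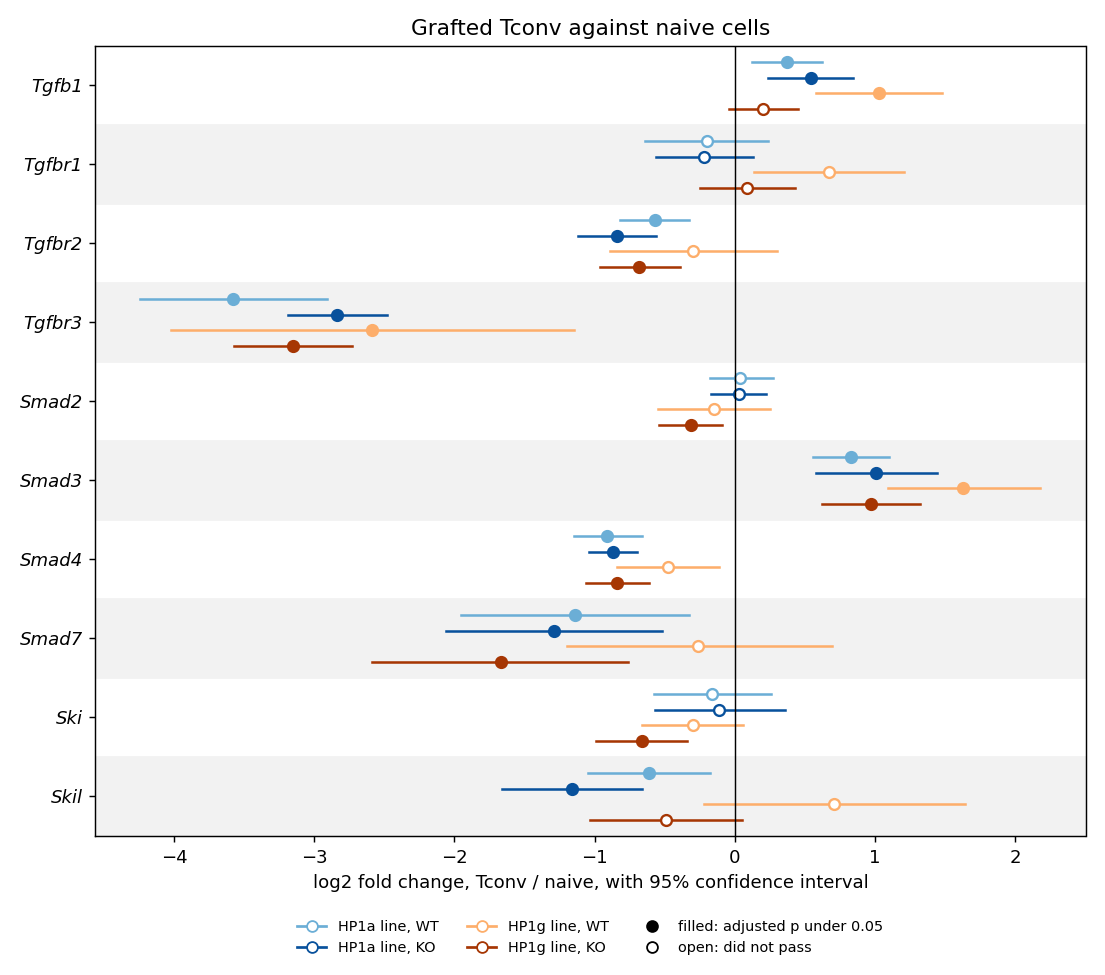
For each member the horizontal axis gives the log2 fold change of Tconv over naive cells in the 4 combinations of line and genotype, as points with 95% confidence intervals; filled points passed at an adjusted p under 0.05. Tgfbr3 lies between −3.58 and −2.59 in all 4 and Smad3 between 0.83 and 1.63 in all 4, while Smad7 ranges from −1.67 to −0.26.

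The second comparison asked whether the pathway genes of Tconv differed when Treg were grafted with them. Smad3 and Tgfbr1 fell in HP1a WT cells, and no member passed in the other 3 settings. By the same edgeR test 0 of 10 members rose and 2 fell in HP1a WT cells, where 7.54% of all genes passed and 3.46% fell. With the added threshold on the log2 difference 1 member passed there, Smad3, against 5.96% of all genes. No member passed in HP1a KO, HP1g WT or HP1g KO cells, where 0.756%, 0.0126% and 0.0% of all genes did. At an unadjusted p under 0.05 the counts were 3, 4, 2 and 1 members in HP1a WT, HP1a KO, HP1g WT and HP1g KO cells, against 22.5%, 15.8%, 6.89% and 7.62% of all genes. DESeq2 called 2, 0, 0 and 0, against 8.92%, 3.54%, 0.283% and 1.09%. The Tconv libraries are the same as in the comparison with naive cells. For the HP1g experiment, the paper reports that WT cells were poorly repressed at the ratio of Tconv to Treg used. A difference in that ratio and a difference between lines cannot be told apart, here or in the contrasts between lines below.

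Smad3 was at 75.1, 84.6 and 64.4 CPM in HP1a WT Tconv and at 37.3, 39.5 and 28.6 CPM in HP1a WT Tconv with Treg. The groups were apart, and the libraries with Treg were in the range of naive cells of the same genotype or below it. Smad3 fell by 1.07 on the log2 scale (SE 0.178, 95% confidence interval −1.49 to −0.66, edgeR adjusted p = 0.0135), and the call was lost without HP1a WT Tconv replicate 1 or 2, with adjusted p of 0.0758 and 0.0744. In HP1a KO cells it was at 72, 114 and 86 CPM without Treg and 71.4, 64.8 and 63.4 CPM with Treg. In HP1g WT cells it was at 124, 104 and 109 CPM without Treg and 67.2, 84.1 and 85.8 CPM with Treg. In HP1g KO cells it was at 79.5, 97.3 and 123 CPM without Treg and 30.2 and 87.8 CPM with Treg. Libraries with and without Treg were apart in HP1a KO cells, by a narrow gap, and in HP1g WT cells, and overlapped in HP1g KO cells, where the 2 libraries with Treg differed widely. The log2 differences of −0.43, −0.50 and −0.74 did not pass, with edgeR adjusted p of 0.251, 0.694 and 0.768.

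Tgfbr1 was at 38.1, 28.8 and 36 CPM in HP1a WT Tconv and at 17.2, 17.3 and 19.2 CPM in HP1a WT Tconv with Treg. The 3 libraries with Treg lay close together and below each library without. Tgfbr1 fell by 0.92 on the log2 scale (SE 0.177, 95% confidence interval −1.33 to −0.51, edgeR adjusted p = 0.0218), a call that passed in 1 of 6 fits with 1 library left out. The HP1a KO libraries had 33.2, 38.1 and 38.1 CPM without Treg and 23, 31.7 and 26.4 CPM with Treg, a difference of −0.42 (edgeR adjusted p = 0.209). The HP1g WT libraries had 43.1, 51.4 and 47.1 CPM without Treg and 28.1, 44.4 and 39.3 CPM with Treg, a difference of −0.34 (edgeR adjusted p = 0.755). The HP1g KO libraries had 33.4, 35.8 and 47.4 CPM without Treg and 9.52 and 24.4 CPM with Treg, 2 values far apart, and the difference of −1.18 did not pass (edgeR adjusted p = 0.614). The sign was negative in all 4 settings for Tgfbr1, Smad3 and Smad4.

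Tgfbr2 was the next largest in HP1a WT cells, at 365, 303 and 349 CPM without Treg and 234, 270 and 156 CPM with Treg. Those groups did not overlap, but the libraries with Treg were scattered, and the difference of −0.61 did not pass (edgeR adjusted p = 0.143). HP1a WT Tconv with Treg replicate 3 was the lowest of the 3 for Tgfbr2 and the highest for Smad7 (93.2 CPM against 59.1 and 61.5). It differed from replicates 1 and 2 by a chi-square of 296 and 325 per gene, against 48.7 between replicates 1 and 2. Without it 4 members passed: Tgfbr2 (−0.43, adjusted p = 0.0407) and Smad7 (−0.61, adjusted p = 0.0137) besides Smad3 and Tgfbr1. The share of all genes passing in that fit is not given, so this count has no background beside it. In all, 5 members did not overlap in HP1a WT cells (Tgfbr1, Tgfbr2, Smad2, Smad3 and Smad4, all lower), 5 in HP1a KO cells, 2 in HP1g WT cells and 2 in HP1g KO cells, against 34.4%, 22.6%, 13.4% and 24.3% of all genes. Smad7 in HP1a KO cells went the other way, from 98.8, 77.8 and 86.2 CPM without Treg to 126, 103 and 107 CPM with Treg, a log2 difference of 0.37 (edgeR adjusted p = 0.203).

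Genes used as markers of Treg and of myeloid cells moved in the same HP1a WT comparison. Summed over 10 Treg markers the libraries ran from 781 to 971 CPM without Treg and from 1070 to 1310 CPM with Treg, and 3 of the 10 rose: Ikzf2, Ctla4 and Gpr83, with Ikzf2 at 15.9 ± 8.59 and 221 ± 91.8 CPM (SD, n = 3). Foxp3 itself was at 4.40 to 12.1 and 13.5 to 69.2 CPM. Summed myeloid markers ran from 7.09 to 8.63 CPM without Treg and from 27.2 to 61.5 CPM with Treg, where 4 of 8 tested rose; 4 and 7 of the 10 had a mean of at least 1 CPM, and 1 of them, Ltf, had no count in HP1a WT Tconv. Naive T cell markers ran from 2520 to 2940 and from 1500 to 2780 CPM, and CD4 T cell markers from 9460 to 10100 and from 10500 to 11100 CPM. The added Treg were gated out, and the paper reports that Treg converted some Tconv into anergic and regulatory T cells. Which cells held the Treg marker transcripts cannot be told here. The part of cells carrying any of these markers in the values of Smad3 and Tgfbr1 was not tested.

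**Figure D3:**
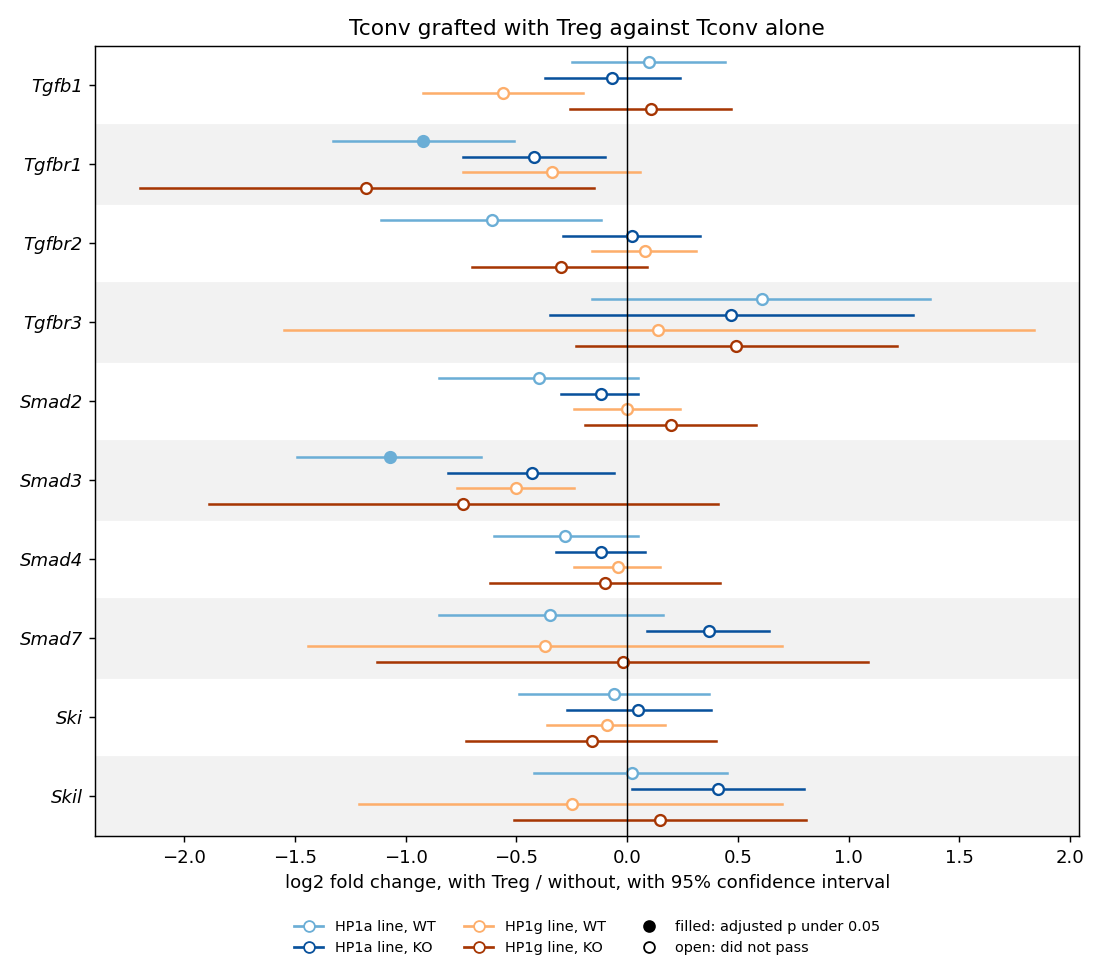
The horizontal axis gives the log2 fold change of Tconv grafted with Treg over Tconv grafted alone for each member in the 4 combinations of line and genotype, with 95% confidence intervals; filled points passed at an adjusted p under 0.05. The 2 filled points are Smad3 at −1.07 and Tgfbr1 at −0.92 in HP1a WT cells, and the points of Smad3 and Tgfbr1 are below 0 in all 4 settings.

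The third comparison, of KO with WT, asked whether loss of HP1a or HP1g altered these genes within a condition. No member passed in any of the 6 comparisons in edgeR, and the deleted gene itself passed there only for Cbx5 in HP1a Tconv. Few genes of any kind passed: 0.0%, 0.122% and 0.123% in naive cells, Tconv and Tconv with Treg of the HP1a line, and 0.00669%, 0.0437% and 0.0% in those of the HP1g line. At an unadjusted p under 0.05 the members numbered 1, 1 and 4 in the HP1a line, against 1.87%, 8.53% and 12.1% of all genes, and 1, 1 and 3 in the HP1g line, against 5.78%, 8.42% and 11.8%. DESeq2 called 1 member in each line, both in Tconv with Treg, and none elsewhere. It called 0.0613%, 0.929% and 3.27% of all genes in the HP1a line and 0.174%, 1.32% and 2.87% in the HP1g line.

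In HP1a KO Tconv with Treg 9 of the 10 members had a higher level than in WT, with a median log2 difference of 0.44 against −0.01 for all genes. The WT libraries are those in which Smad3 and Tgfbr1 fell with Treg, so the comparisons share them. Smad3 differed most, at 37.3, 39.5 and 28.6 CPM in WT and 71.4, 64.8 and 63.4 CPM in KO, with no overlap. The difference was 0.90 on the log2 scale (SE 0.17, 95% confidence interval 0.51 to 1.3), which missed the threshold in edgeR (adjusted p = 0.091) and passed in DESeq2 (adjusted p = 0.000168), in the edgeR fit of all libraries (0.0273) and without WT replicate 3 (0.0393). Smad7 was at 59.1, 61.5 and 93.2 CPM in WT and 126, 103 and 107 CPM in KO, a difference of 0.63 (SE 0.217, edgeR adjusted p = 0.307). Tgfbr1 at 0.58, Tgfbr2 at 0.57 and Smad4 at 0.21 also had no overlap, making 5 members against 21.5% of all genes. Summed myeloid markers in these groups ran from 27.2 to 61.5 CPM in WT and from 208 to 603 CPM in KO, where 1 of the 10 rose, Treg markers from 1070 to 1310 and from 710 to 910 CPM, and erythroid markers, none of 6 passing, from 2.66 to 50 and from 112 to 703 CPM; their part in the differences was not tested.

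In the HP1g line with Treg the differences were mostly negative, with a median of −0.34 against 0.01 for all genes, and 5 members did not overlap against 29.2% of all genes, in a comparison with 2 KO libraries. The WT libraries are again those of the Treg comparison. Smad7 was at 182, 169 and 153 CPM in WT and 124 and 92.4 CPM in KO, a difference of −0.62 (SE 0.164), which did not pass in edgeR (adjusted p = 0.242) and did in DESeq2 (adjusted p = 0.0376). Tgfbr1 was at 28.1, 44.4 and 39.3 CPM in WT and 9.52 and 24.4 CPM in KO, a difference of −1.12 with a 95% confidence interval of −2.17 to −0.08 (edgeR adjusted p = 0.386). The 2 KO libraries disagreed on several members, Tgfbr1 and Smad3 among them: without KO replicate 2, the higher one, and with the remaining library assumed to vary like the WT group, Tgfbr1 was at −1.99 (adjusted p = 0.0475) and Smad3 at −1.41 (adjusted p = 0.0409). Summed Treg markers ran from 659 to 846 CPM in WT and from 890 to 1510 CPM in KO, myeloid markers from 112 to 138 and from 93.4 to 282 CPM, B cell markers from 4.83 to 16.4 and from 24.2 to 26.1 CPM, and erythroid markers from 154 to 3480 and from 112 to 6100 CPM. None of the genes of these 4 lists passed, and their part in the differences was not tested.

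Without Treg the members differed less in the HP1a line, with medians of 0.07 in naive cells and 0.06 in Tconv. The largest difference there was that of Tgfbr3 in Tconv, 0.75 (SE 0.265, edgeR adjusted p = 0.552), in a comparison whose summed myeloid markers ran from 7.09 to 8.63 CPM in WT and from 13.9 to 180 CPM in KO. In the HP1g line all 10 members had a positive log2 difference in naive cells, with a median of 0.38 against 0.02 for all genes, and 3 of them, Tgfb1, Smad3 and Smad7, did not overlap, against 17.4% of all genes. WT naive replicate 2 was the lowest naive library of that line for 9 members and the highest for Smad2, and without it the 10 differences were 0.02 to 0.30, still positive. In HP1g Tconv 9 of 10 were negative, with a median of −0.21; Tgfb1 was at 145, 114 and 94.7 CPM in WT and 68.7, 81.1 and 86.1 CPM in KO, a difference of −0.57 (SE 0.165, edgeR adjusted p = 0.372), and 2 members, Tgfb1 and Smad4, did not overlap, against 13.9% of all genes. The single member without overlap in HP1a naive cells was Tgfbr2 (0.22, against 6.19% of all genes), and there was none in HP1a Tconv, against 15.1%.

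**Figure D4:**
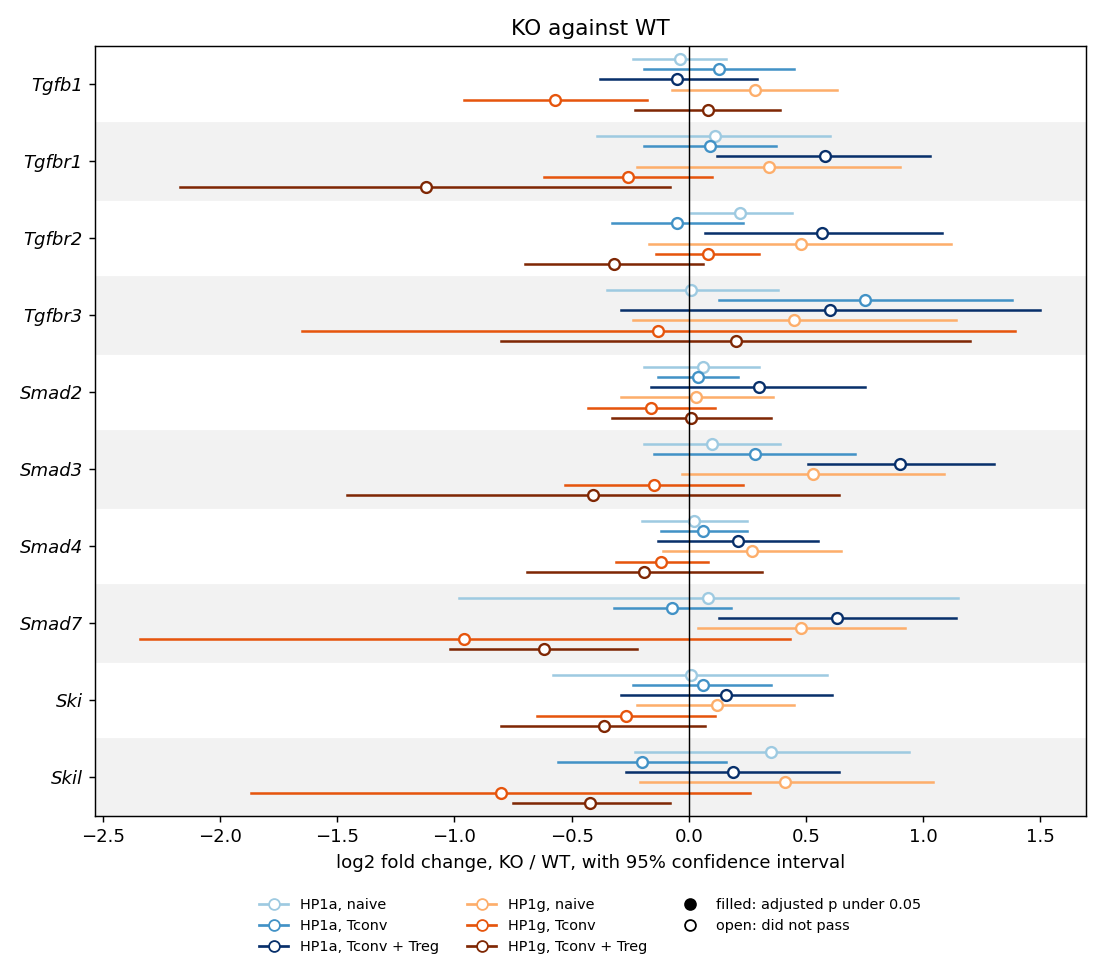
The horizontal axis gives the log2 fold change of KO over WT for each member in naive cells, Tconv and Tconv with Treg of the HP1a line (blue) and the HP1g line (orange), with 95% confidence intervals. All points are open, since none passed at an adjusted p under 0.05; in Tconv with Treg, Smad3 lies at 0.90 in the HP1a line and at −0.41 in the HP1g line, and Smad7 at 0.63 and −0.62.

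Whether those differences themselves differed between genotypes or lines was tested directly. No member passed for the genotype by Treg interaction in either line, where 0.145% of all genes passed in the HP1a line and 0.0% in the HP1g line (edgeR, adjusted p). Unadjusted, 4 and 2 members had p under 0.05, against 9.74% and 3.74% of all genes, and DESeq2 called none, against 1.49% and 0.0468%. For Smad3 the Treg effect in HP1a KO cells minus that in HP1a WT cells was 0.64 (95% confidence interval 0.09 to 1.19, edgeR adjusted p = 0.418), so the fall in WT cells was not shown to be absent or smaller in KO cells. The Treg effect in WT cells was not shown to differ between the lines for any member by edgeR, where 1.76% of all genes passed. Unadjusted, 4 members had p under 0.05 against 15.7% of all genes, and DESeq2 called none against 3.4%. For Smad3 the HP1a line minus the HP1g line was −0.58 (−1.04 to −0.12, edgeR adjusted p = 0.204).

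The KO effect in Tconv with Treg came closest to differing between the lines. The HP1a line minus the HP1g line was 1.26 for Smad7 (SE 0.306, edgeR adjusted p = 0.0562) and 1.70 for Tgfbr1 (SE 0.468, edgeR adjusted p = 0.0817), and 9 of 10 members were positive, with a median of 0.57. No member passed in edgeR, against 2.84% of all genes, and 5 had an unadjusted p under 0.05, against 18.0%. DESeq2 called 3, against 5.34% of all genes: Smad7, Tgfbr1 and Tgfbr2, with adjusted p of 0.00418, 0.00759 and 0.0379. HP1a is missing in all tissues of 1 line and HP1g in T cells of the other, and each line has its own WT group. Cell type markers differed in the same contrast. By edgeR, 3 of 10 Treg markers and 1 of 10 CD4 T cell markers passed lower. Higher were 2 of 7 naive T cell markers and 1 of 10 myeloid markers. Their part in the differences of the members was not tested.

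Of the 73 other genes of the pathway that were listed, 57 to 61 could be tested between Tconv and naive cells. In the same order of groups as before (HP1a WT, HP1a KO, HP1g WT, HP1g KO), 13, 13, 14 and 11 of them rose and 23, 18, 10 and 19 fell. Of all genes 24.3%, 22.9%, 18.3% and 23.4% rose and 21.4%, 17.8%, 13.2% and 17.7% fell. The share of these pathway genes that rose was near that of all genes. The share that fell was above that of all genes in HP1a WT, HP1a KO and HP1g KO cells, with no test of the set. The medians of these pathway genes were −0.15, −0.17, 0.08 and −0.21 on the log2 scale, against −0.04, −0.01, −0.03 and 0.02 for all genes. The next 4 genes, which passed in all 4 groups, were chosen for mention once their values had been seen. Tgfb3, encoding a second TGF-β ligand, rose from 0.971 ± 0.309 to 22.2 ± 2.04 CPM in HP1a WT cells (SD, n = 3) and by 4.36 to 5.04 on the log2 scale over the 4 groups. Furin, the protease that cleaves the TGF-β precursor, rose from 39.3 ± 5.13 to 273 ± 120 CPM in HP1a WT cells and by 2.16 to 4.10 over the 4. Nedd4l, a ubiquitin ligase acting on SMADs, fell from 53.6 ± 6.19 to 2.50 ± 0.691 CPM in HP1a WT cells, with log2 differences from −4.41 to −3.31. Acvrl1, encoding the receptor kinase ALK1, fell from 57.5 ± 8.52 to 4.28 ± 4.70 CPM in HP1a WT cells, with log2 differences from −5.98 to −3.71. Of 19 ubiquitin ligases and other regulators of receptors and SMADs tested, 10, 8, 3 and 6 fell and 3, 2, 1 and 1 rose in the 4 groups. Smad1, of the bone morphogenetic protein branch, fell in all 4, and Smad5 in all but HP1g WT cells.

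With Treg, 2 of 59 other pathway genes rose and 4 fell in HP1a WT cells, and 1 of 58 fell in HP1a KO cells; none of 60 in HP1g WT and none of 62 in HP1g KO cells passed. Over all genes 7.54% passed in HP1a WT cells, with 3.46% of all genes falling, and 0.756% in HP1a KO cells. The counts were near these shares, apart from a higher share falling in HP1a WT cells, on 4 genes. Itgb8, the integrin chain with which Treg release active TGF-β, rose from 0.17 ± 0.277 to 23.8 ± 4.25 CPM in HP1a WT cells (SD, n = 3), a log2 difference of 7.19 (SE 0.982, edgeR adjusted p = 0.00716). Its partner Itgav rose from 36.3 ± 4.46 to 69.7 ± 6.75 CPM. Treg markers were higher in the same comparison, as given above for Smad3, and their part in the values of Itgb8 and Itgav was not tested. Itgb3, an alternative partner of Itgav, fell by 2.29 and Furin by 2.19 on the log2 scale (edgeR adjusted p of 0.0193 and 0.00778), and Itgb3 also fell in HP1a KO cells, by 0.94 (0.0346). Nrros, which anchors latent TGF-β on myeloid cells, and Tab1, of the SMAD-independent branch, were the other genes that fell. The KO effect with Treg differed between the lines (HP1a minus HP1g) for Itgb8, by −5.90, and for Itgav, by −1.25 (edgeR adjusted p of 0.0474 and 0.0265). In that contrast 3 of 10 Treg markers also passed lower, with a list median of −1.17, and their part was not tested. For the Treg effect in WT cells, HP1a line minus HP1g line, 1 of 60 other pathway genes passed higher and 1 lower, against 1.76% of all genes. There 2 of 10 Treg markers passed higher, and their part was not tested. Of the other pathway genes, none of 56 to 62 tested passed in any of the 6 comparisons of KO with WT.

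Of 10 genes known to be repressed by TGF-β in T cells, 8 rose from naive cells to Tconv in each of the 4 groups, against 24.3%, 22.9%, 18.3% and 23.4% of all genes. The others fell in part: Prf1 in HP1a WT cells, Prf1 and Myc in HP1g WT cells, Myc in HP1g KO cells and neither in HP1a KO cells. Ifng, the T helper 1 cytokine, was at 0.0677 ± 0.0285 CPM in HP1a WT naive cells and 421 ± 63.3 CPM in HP1a WT Tconv (SD, n = 3), and Gzmb, a granule protease, at 0.124 ± 0.116 and 208 ± 44.3 CPM. Klrg1, a receptor of terminally differentiated cells, had no count in HP1a WT naive cells and 38.6 ± 9.19 CPM in Tconv. Among the genes known to be induced by TGF-β, Itgae rose from 0.236 ± 0.138 to 83.9 ± 80.7 CPM in HP1a WT cells, with wide scatter, and 2 of the 7 rose and 3 fell there. That list holds Smad7 and Skil, both of them among the genes that fell in HP1a WT cells.

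With Treg, 4 of the 10 repressed targets fell and 2 rose in HP1a WT cells, where 3.46% of all genes fell and 7.54% passed in either direction. Tbx21, encoding the T helper 1 factor T-bet, fell from 230 ± 32.6 to 69.5 ± 21.1 CPM (SD, n = 3) and Gata3, the T helper 2 factor, from 458 ± 137 to 147 ± 33.2 CPM. Myc and Klrg1 fell by 1.53 and 1.29 on the log2 scale. Eomes, a T-box factor related to T-bet, rose instead, from 14.1 ± 2.80 to 159 ± 94.6 CPM, and Prf1, encoding perforin, from 21.0 ± 3.87 to 75.6 ± 31.2 CPM. In HP1a KO cells Myc alone passed, falling by 0.63 (edgeR adjusted p = 0.0497), and none passed in either genotype of the HP1g line. The list medians were −1.26, −0.55, −0.30 and −0.66 in HP1a WT, HP1a KO, HP1g WT and HP1g KO cells, against 0.03 or less for all genes. No induced target passed in any of the 4 settings. The medians of that list of 7 were 0.29, 0.42, −0.22 and 0.81 in the same order. Itgae, 1 of the 7, had log2 differences of −1.99, −3.37, −3.13 and −0.72. None of either target list passed in the 6 comparisons of KO with WT, and of these genes Myc alone differed between the lines in its KO effect with Treg, by 1.99 (edgeR adjusted p = 0.0371).

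**Figure D5:**
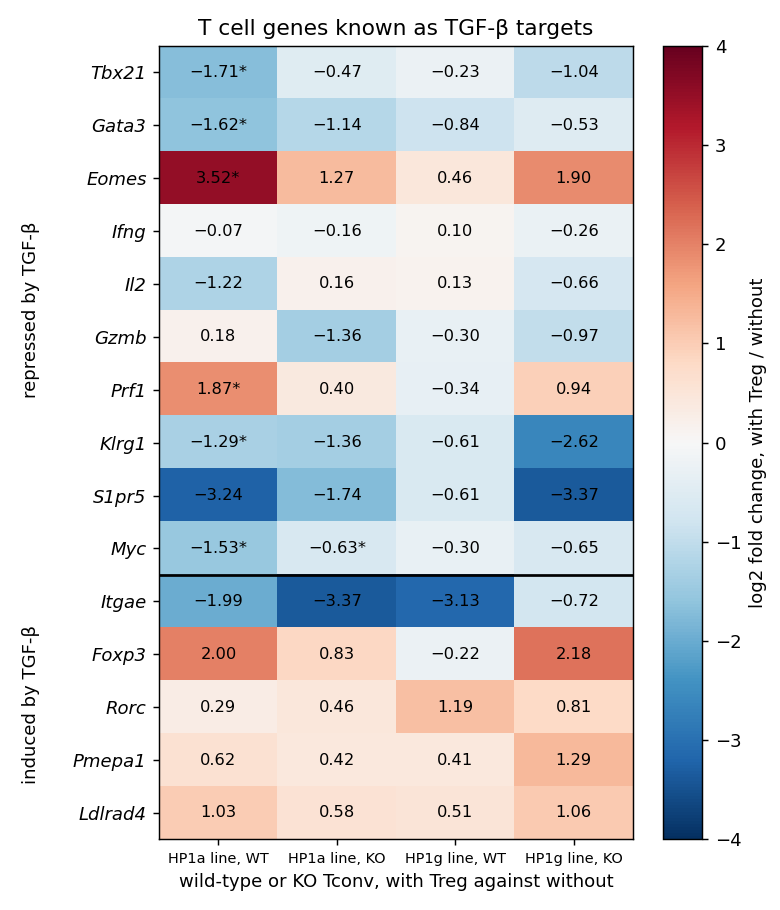
Each cell of the grid gives the log2 fold change of Tconv with Treg over Tconv alone for 1 gene (rows) in 1 line and genotype (columns), red for higher and blue for lower; an asterisk marks an adjusted p under 0.05, and Smad7 and Skil are left to the plot of members. Of the 7 asterisks 6 are in the HP1a WT column, where Eomes and Prf1 are higher and Tbx21, Gata3, Klrg1 and Myc lower.

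Over the 8 group means of grafted cells the genes whose pattern was most like that of each member are given as a description. Among 9409 genes, those most like Smad3 were Bms1, Dcaf1 and Slc30a5, each at a Pearson correlation of 0.99 of log2(CPM + 1), and those most like Tgfbr1 were Paip2b at 0.998, Mgat4a at 0.986 and AI506816 at 0.985. Tgfbr2 was closest to Ankhd1 (0.99), Gramd3 (0.984) and Nr1d2 (0.981), Smad2 to Cdr2 (0.974), Vav1 (0.973) and Cables2 (0.971), and Smad4 to Polr1a, Polr3b and Atp10a (0.991 each). Smad7 was closest to Phlda1 (0.982), Nfkbid (0.974) and Slc25a25 (0.974), and Skil to Nfkbiz (0.981), Pnrc1 (0.98) and Maff (0.971), which include early-response genes. Ski was closest to Qpct (0.982), Atic (0.979) and Fbl (0.965). Tgfb1 had the lowest values, with Xpot at 0.911, Smad5, itself a SMAD gene, at 0.843 and Crebl2 at 0.832. The 8 points share libraries of 2 lines and carry no test.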

How the data were processed

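RNA, labelled as polyA RNA, was amplified with a SMART-Seq kit, which does not mark the strand, and sequenced as read pairs. The authors aligned reads with STAR and quantified them with Salmon on GRCm39, and deposited 1 table of estimated counts for 56748 genes in 36 libraries, 82.9% of the values exactly whole, zeros included. Estimated counts were rounded to whole numbers here. HP1g KO Tconv with Treg replicate 3 was left out, as in the study. The members and lists were chosen with earlier results of these data known.

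Groups came from the sample labels. Each comparison was fitted on the libraries of its groups with edgeR 4.0.16 (limma 3.58.1, R 4.3.3), after filterByExpr and TMM normalization, by the quasi-likelihood F test with Benjamini-Hochberg adjustment over all genes and a threshold of 0.05. Where naive and grafted cells, or lines, were contrasted, comparisons shared libraries. CPM values were scaled with TMM factors over the 35 libraries in use, and those of the excluded library with factors over all 36 libraries. A level of 3 counts was taken as the floor of detection, which covers counting error only. No 2 of the 36 replicate pairs were identical, and the closest differed by a chi-square of 8.37 per gene.

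Every member is described. Other pathway genes are given as counts, with up to 4 named per comparison by size of change among those passing with a mean of at least 5 CPM in 1 group; further names were chosen after their values were seen. The alternatives were DESeq2 1.42.0, RLE size factors, no filter on low counts, all libraries in 1 fit, the fold threshold of the study, the replicate number as a block, the excluded library put back, and each library left out in turn. For libraries with the same number, the deviations from their group means were correlated. With 3 pairs, every pair was above 0.1 for HP1a KO against WT in naive cells (0.287 to 0.654) and HP1g KO against WT in Tconv (0.112 to 0.431). These were counted as pairs, but the values printed for these 2 comparisons come from fits without pairing. Pairing entered only through the alternative with the replicate number as a block. HP1g KO against WT in Tconv with Treg had 2 pairs, at 0.197 to 0.38, and was not counted.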

Additional observations from a re-analysis of the deposited data

Results flagged for a closer look

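The library set aside by the study, HP1g KO Tconv with Treg replicate 3, held signal for 8 of the 10 members above the range of the HP1g WT libraries with Treg. The share of all genes above that range is not given, so this count has no background beside it. Its 10 most abundant genes held 15.4% of counts, against 5.19% and 5.3% in replicates 1 and 2. In all, 18623 genes had a count in the library set aside, against 23069 and 23117 in replicates 1 and 2. Smad4 was at 2130 CPM in the library set aside against 120 to 139 CPM in the 3 WT libraries, and Ski at 540 CPM against 51.3 to 59.8 CPM. Smad7 was at 401 CPM against 153 to 182 CPM, Smad2 at 163 CPM against 101 to 103 CPM, and Smad3 at 147 CPM against 67.2 to 85.8 CPM. These 5 values were also above all 35 libraries in use. Tgfbr2 at 508 CPM against 368 to 454 CPM, Tgfb1 at 99.5 CPM against 73.7 to 86.5 CPM, and Tgfbr3 at 29.7 CPM against 10.6 to 25.8 CPM were above the WT range only. Tgfbr1 at 13.4 CPM against 28.1 to 44.4 CPM and Skil at 80.9 CPM against 148 to 180 CPM were below the WT range. With the library put back, none of the 40 tests of a member in which its group takes part changed its call.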

How the results depend on the processing

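No member reversed its direction past the threshold under any alternative, and RLE size factors changed none of the 180 calls (10 members in 18 comparisons). With 1 library left out, the number of members called ranged from 4 to 7 for Tconv against naive cells in HP1a WT, 6 to 8 in HP1a KO, 2 to 7 in HP1g WT and 6 to 9 in HP1g KO cells. For HP1a WT cells with against without Treg it ranged from 0 to 4: 0 without HP1a WT Tconv replicate 1 or 2, and 4 without HP1a WT Tconv with Treg replicate 3. It ranged from 0 to 2 for KO against WT in Tconv with Treg of either line and for the difference between the lines in that effect, and from 0 to 1 for the genotype by Treg interaction in the HP1a line, where Smad7 was at 0.97 without HP1a WT Tconv with Treg replicate 3 (adjusted p = 0.0309). The 2 in HP1g WT cells came without Tconv replicate 2 and the 7 without naive replicate 2; the 4 in HP1a WT cells came without Tconv replicate 2. In the other comparisons it stayed at 0. Shares of all genes passing are given above for the main fits and DESeq2 only. The counts under the other settings, here and below, therefore have no background beside them.

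DESeq2 called 1 member for KO against WT with Treg in each line (Smad3 in HP1a, Smad7 in HP1g), 5 for Tconv against naive in HP1g WT cells and 3 for the difference between lines in the KO effect. All libraries in 1 fit gave 1 in each line (Smad3 in HP1a, Tgfbr1 in HP1g), 4 for the Treg effect in HP1a WT cells, 1 (Tgfbr1) in HP1g KO cells, 5 for Tconv against naive in HP1g WT cells and 3 for the difference between lines. Without the filter on low counts that difference gave 2. The fold threshold left 1 for the Treg effect in HP1a WT cells and, for Tconv against naive, 2 in HP1a WT, 4 in HP1a KO and 2 in HP1g KO cells. The causes were not tested, except that the fold threshold removes smaller changes by construction.

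With the replicate number as a block, 180 of 180 calls were as without it, with 0 lost and 0 gained: 7, 7, 3 and 7 members for Tconv against naive in HP1a WT, HP1a KO, HP1g WT and HP1g KO cells and 2 for the Treg effect in HP1a WT cells. Outside the comparisons named under processing, the libraries were taken to share only a number.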
